A study of Mus musculus with 81 samples.

Results

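Of the 55450 genes listed in the count tables, 10 genes of abundant neutrophil granule and cytosolic proteins were chosen by symbol, and each of the 10 was present in every table. Elane, Mpo, Prtn3 and Ctsg encode proteins of the primary (azurophilic) granules. Camp, Ltf, Ngp and Mmp8 encode proteins of the later, secondary and tertiary, granules, and S100a8 and S100a9 encode the calgranulins, which are abundant in the neutrophil cytosol. The question asked of them was how their RNA levels moved in bone marrow cultures and tissue macrophages whose genes for the histone variant H3.3 were targeted for deletion. It was also asked whether the primary and later genes moved alike.

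Granulocytes make their granule proteins in waves. Promyelocytes transcribe the primary granule genes, myelocytes and metamyelocytes transcribe the genes of the secondary and tertiary granules, and the genes of the first wave are silent by the time the second is under way. Macrophages grown from marrow with M-CSF come from progenitors that share part of this program and switch it off as they mature, so the level of these RNAs in a culture reports on progenitors, on granulocytes carried over from the marrow, and on any macrophage that keeps a gene on.

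The study measured gene expression by RNA-seq in mouse myeloid cells. WT cells were H3f3a fl/fl H3f3b fl/fl without cre, and cKO cells carried the same floxed alleles with LysM cre/cre, in which the cre sits in both copies of Lyz2 and is active in granulocytes as well as in macrophages. The C57BL/6 mice were adult males and females. Bone marrow cells were cultured with L929 conditioned medium, a source of M-CSF, into bone marrow derived macrophages (BMDMs). The time course held WT and cKO cultures on days 3 and 5, titled BMDM progenitors, and BMDMs on day 7 (3 libraries each). Other groups were WT and cKO BMDMs on day 8 without or with 12 h of IFNγ (3 WT and 2 cKO libraries each). In the antibody experiment WT and cKO BMDMs had no antibody, a control antibody or an antibody to the type I interferon receptor IFNAR1 (3 each). The remaining groups were WT and cKO peritoneal macrophages (3 each) and 3 sets of WT and cKO BMDMs called A, B and C (3 each). Each of 3 double knockouts, H3.3cKO:StingKO, H3.3cKO:MavsKO and H3.3cKO:Irf7KO, had 3 libraries and carried the cKO alleles too. Of 81 libraries, 79 were placed in a group. In the 2 others, both labelled as cKO day 8 replicate 3, the title and the library name disagreed on IFNγ, and they entered no comparison of the main analysis.

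Libraries held from 3614967 to 45564225 counts on genes. H3f3a, 1 of the 2 floxed H3.3 genes, lay between 33.6 and 93.8 CPM (TMM-scaled counts-per-million) in the WT groups and between 1.21 and 15.3 CPM in the cKO groups and double knockouts. H3f3b, the other floxed gene, fell less, with 16.7 to 67.8 CPM in cKO and 295 to 468.3 CPM in WT libraries of the antibody experiment, and 71.9 to 360.8 CPM in cKO and 180.8 to 535.9 CPM in WT libraries elsewhere. Tmem173, the gene of Sting, had 5.01 to 6.10 CPM in H3.3cKO:StingKO and 68.2 to 91.6 CPM in the cKO sets, and Irf7 had 98.3 to 111.9 CPM in H3.3cKO:Irf7KO and 248.6 to 470.2 CPM in the cKO sets. Mavs, with 37.2 to 37.9 CPM in H3.3cKO:MavsKO, overlapped the cKO sets at 36.0 to 51.6 CPM, and a count over the whole gene does not show a deleted part. Lyz2, the lysozyme gene that holds the cre and is itself a granule protein gene, was lowest in WT libraries at 4465 CPM and highest in cKO libraries at 81.9 CPM. It was therefore not among the genes compared. Of 10 macrophage markers, among them Csf1r and Adgre1, none was at 0 in any group. Here and for the lists below this refers to counts summed over the libraries of a group, and it does not measure purity. The libraries of sets A and C resembled each other. Each of the 6 set A libraries was nearest, of all libraries of the other sets with its genotype, to the set C library with the same number. In the other direction, replicate 3 of set C was nearest to set A replicate 2 in both genotypes. The cKO effect differed between sets A and C in 0 of 18083 genes tested by edgeR. The labels do not say whether these sets came from different animals, so sets A and C are not counted here as independent of each other.

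Of the 10 genes, 8 do not overlap another annotated gene. Prtn3 (chromosome 10, 79874476 to 79883174, plus strand, GRCm38) overlaps Plppr3 on the other strand, and Mpo (chromosome 11, 87793581 to 87804413, plus strand) overlaps the noncoding Gm11505. Libraries did not mark strand, and in this kind of count a read that falls on exons of more than one gene is left out. Gm11505 had at most 3 counts in any library, and Plppr3 had between 2.21 and 33.4 CPM without scaling. Elane (chromosome 10, 79886247 to 79888215, plus strand), the gene of neutrophil elastase, lies 3073 bases from Prtn3, the gene of proteinase 3. Ctsg (chromosome 14, 56099881 to 56102574, minus strand) encodes the third serine protease of the primary granules, cathepsin G, and Mpo encodes myeloperoxidase. Camp, Ltf, Ngp and Mmp8 all lie on chromosome 9. S100a8 and S100a9 are neighbours on chromosome 3.

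The 250 bases before the RefSeq start are shown for the 4 primary genes, whose RNAs moved together, and for Mmp8, a later gene that holds the same letters. Capitals mark AGGAAGT, which the haematopoietic factor PU.1 is known to bind, or its reverse complement. Sequences are from RefSeq on GRCm38.p6, written 5′ to 3′ along the gene's strand. The RefSeq starts of Elane, Prtn3 and Mpo lie within the annotated genes given above, so that part of the Elane window, most of the Mpo window and the whole Prtn3 window lie inside those genes.
Elane promoter, chr10:79886062-79886311, plus strand: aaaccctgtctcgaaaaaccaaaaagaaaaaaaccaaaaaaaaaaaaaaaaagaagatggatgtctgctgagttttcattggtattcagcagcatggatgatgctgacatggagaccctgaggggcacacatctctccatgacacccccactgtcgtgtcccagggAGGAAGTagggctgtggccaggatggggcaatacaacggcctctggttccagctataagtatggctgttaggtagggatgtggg
Prtn3 promoter, chr10:79879417-79879666, plus strand: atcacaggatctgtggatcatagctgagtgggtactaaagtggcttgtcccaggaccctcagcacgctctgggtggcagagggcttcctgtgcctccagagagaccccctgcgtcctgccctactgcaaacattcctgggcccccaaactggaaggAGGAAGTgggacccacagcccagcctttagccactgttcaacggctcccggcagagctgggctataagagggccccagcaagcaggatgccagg
Mpo promoter, chr11:87793534-87793783, plus strand: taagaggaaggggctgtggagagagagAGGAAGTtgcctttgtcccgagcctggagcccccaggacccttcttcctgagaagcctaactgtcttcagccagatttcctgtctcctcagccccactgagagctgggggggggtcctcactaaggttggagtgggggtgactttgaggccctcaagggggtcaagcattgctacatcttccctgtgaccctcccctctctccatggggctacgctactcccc
Ctsg promoter, chr14:56102575-56102824, minus strand: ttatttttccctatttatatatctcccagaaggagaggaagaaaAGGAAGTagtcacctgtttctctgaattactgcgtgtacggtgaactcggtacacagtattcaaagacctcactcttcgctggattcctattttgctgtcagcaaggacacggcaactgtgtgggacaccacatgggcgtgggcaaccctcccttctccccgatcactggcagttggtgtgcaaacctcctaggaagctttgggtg
Mmp8 promoter, chr9:7558179-7558428, plus strand: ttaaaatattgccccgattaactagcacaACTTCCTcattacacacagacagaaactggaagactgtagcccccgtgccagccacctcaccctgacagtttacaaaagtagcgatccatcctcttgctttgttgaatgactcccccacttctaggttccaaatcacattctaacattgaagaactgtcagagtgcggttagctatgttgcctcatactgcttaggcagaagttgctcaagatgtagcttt
AGGAAGT, searched on both strands, was present in 4 of 4 primary promoters, in 1 of 4 later ones (Mmp8) and in 1 of 2 calgranulin promoters (S100a8), and in 7.69% of the 32851 promoters of the same length. In Elane and Prtn3 its first letter lay 84 and 94 bases before the start, and in Ctsg and Mpo 206 and 223 bases. TTGCNNAA, a form of the C/EBP site, was found in 0 of 4 primary, 3 of 4 later and 1 of 2 calgranulin promoters, against 9.56% of all promoters. A form of the interferon-stimulated response element, GAAA followed after 2 bases by GAAA, was in none of the 10 promoters and in 2.98% of all. CAACGG, a form of the MYB site that was added after the sequences were read, was in Elane and Prtn3 and in 4.05% of all promoters. In Mmp8 AGGAAGT lay 221 bases and TTGCNNAA 19 bases before the start, so that they do not overlap, nor do AGGAAGT and CAACGG, 51 bases before the start in Elane and 56 in Prtn3. A match to such letters is a description of the window and not of binding.

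During culture all 10 genes fell, in both genotypes. In WT cells the median change of the primary genes from day 3 to day 7 was -6.63 on the log2 scale, and that of the later genes was -4.26. In cKO cells the primary genes changed by a median of -4.57 and the later genes by a median of -4.42. The median over all genes was 0.05 in WT and 0.01 in cKO cells. Elane had 129, 156 and 224 CPM in the WT libraries on day 3, then 13.9, 16.1 and 20.7 CPM on day 5, and 1.25, 0.700 and 1.65 CPM on day 7. In cKO cells Elane had 372, 290 and 259 CPM on day 3, then 120, 34.3 and 49.8 CPM on day 5, and 12.8, 3.34 and 10.2 CPM on day 7. The cKO libraries were above all WT libraries on each of the 3 days, by 0.85, 2.01 and 2.83 on the log2 scale. From day 3 to day 7 all 10 genes were called lower in WT cells and in cKO cells (edgeR's quasi-likelihood test, Benjamini-Hochberg adjusted p under 0.05), against 11.7% and 7.7% of all genes called lower. Between day 3 and day 5, 8 of 10 were called lower in WT cells, all but Ltf and S100a9, and 6 of 10 in cKO cells, the 4 primary genes and 2 later ones, against 2.04% and 2.24%. These counts rest on single libraries. In WT cells the count was 4 without day 3 replicate 3 and 5 without any 1 of the 3 day 5 libraries, and in cKO cells it was 1 and 3 without day 3 replicates 1 and 2, 10 without day 5 replicate 1 and 0 without day 5 replicate 2 or replicate 3. In these bulk samples fewer cells of a type and less RNA per cell cannot be told apart.

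**Figure D1:**
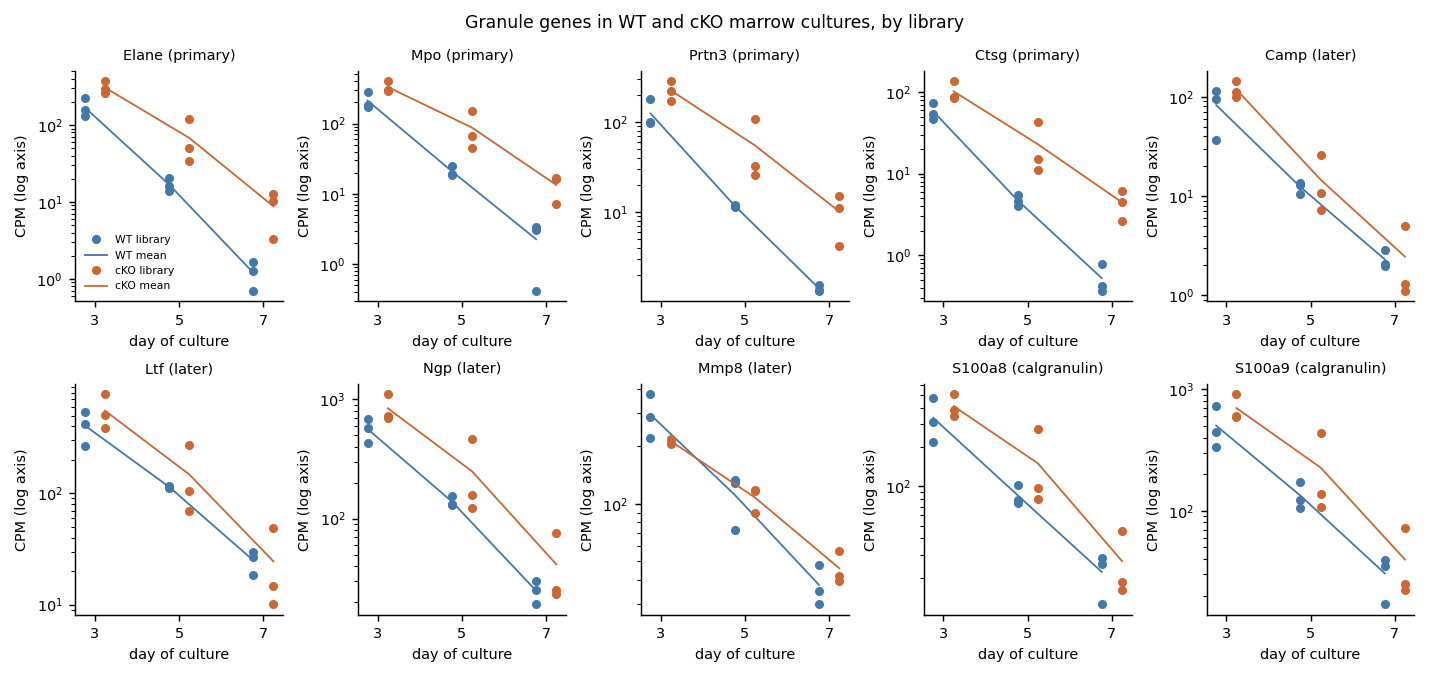
CPM of each of the 10 genes (log axis) against day of culture. Points are libraries, 3 per group, blue for WT and orange for cKO, and lines join group means. The orange points of the 4 primary genes lie above the blue ones on days 5 and 7, and those of the 6 other genes overlap them.

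On day 3 none of the 10 genes was called between cKO and WT cells by edgeR's test (0 at an unadjusted p under 0.05, 0 by DESeq2), against 7.73% of all 15955 genes tested. The log2 fold changes of the primary genes were between 0.64 and 0.85. Elane averaged 307 ± 58.6 CPM in cKO and 170 ± 49.1 CPM in WT cells (SD, n = 3), with a log2 fold change of 0.85 (SE 0.43, adjusted p = 0.258 by edgeR). For Elane, Mpo, Ctsg and Ngp the cKO libraries were all above the WT libraries. The share of all genes whose libraries separate in this way was not counted, for this or any later comparison. Mmp8, which encodes neutrophil collagenase, had the opposite order, with 284, 222 and 375 CPM in WT and 219, 206 and 216 CPM in cKO libraries (log2 fold change -0.46, SE 0.24, adjusted p = 0.279 by edgeR).

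On day 5 the 4 primary genes rose in cKO against WT cells, and no other member passed the test. The call was made for 4 of 10 members, against 2.83% of all genes in either direction and 2.2% higher. Ctsg rose most, from 4.70 CPM in WT to 22.97 CPM in cKO cells, a log2 fold change of 2.28 (SE 0.43, adjusted p = 0.0114 by edgeR). Prtn3 had 11.7, 11.4 and 12.0 CPM in WT and 107, 25.5 and 32.3 CPM in cKO libraries. Mpo had 19.5, 18.5 and 25.1 CPM in WT and 151, 44.9 and 66.6 CPM in cKO libraries. In each primary gene all cKO libraries were above all WT libraries, with cKO replicate 1 the highest. That library was also the highest of the day 5 libraries for Camp, Ltf, Ngp, S100a8 and S100a9 (Ngp 465 CPM, where the other cKO libraries had 156 and 124 CPM). Without it 1 of 10 members was called, and the log2 fold change of Elane was 1.32 in place of 2.01. Of the WT day 5 libraries, leaving out replicate 1 gave a count of 1, and leaving out replicate 2 or replicate 3 gave 0, as did a fit of only the day 5 libraries. The later genes had log2 fold changes from -0.05 (Mmp8) to 0.84 (Ngp, the gene of neutrophilic granule protein), with adjusted p from 0.468 to 0.951 by edgeR.

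By day 7 the log2 fold changes of the primary genes were between 2.51 and 3.06, and all 4 were called (4 of 10 members, against 1.4% of all genes in either direction and 0.871% higher). Mpo had 3.34, 0.420 and 3.05 CPM in WT and 16.4, 7.15 and 16.6 CPM in cKO libraries, a log2 fold change of 2.51 (SE 0.53, adjusted p = 0.0313 by edgeR). Ctsg had 0.365, 0.420 and 0.776 CPM in WT and 4.53, 2.64 and 6.14 CPM in cKO libraries. No cKO library of a primary gene reached down to a WT library. Camp, the gene of the cathelicidin antimicrobial peptide, had 1.98, 2.87 and 2.07 CPM in WT and 4.94, 1.11 and 1.31 CPM in cKO libraries, and Ltf, the lactoferrin gene, had 29.9, 26.7 and 18.4 CPM in WT and 48.6, 14.7 and 10.1 CPM in cKO libraries. For these later genes 2 of the 3 cKO libraries were below all WT libraries and cKO replicate 1 was above them. Their log2 fold changes were 0.09 (SE 0.60) and -0.03 (SE 0.53), and adjusted p was 0.959 and 0.987 by edgeR. The 4 calls were lost (0 of 10) without WT day 7 replicate 2, cKO day 7 replicate 1 or cKO day 7 replicate 3, and with only the day 7 libraries fitted.

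**Figure D2:**
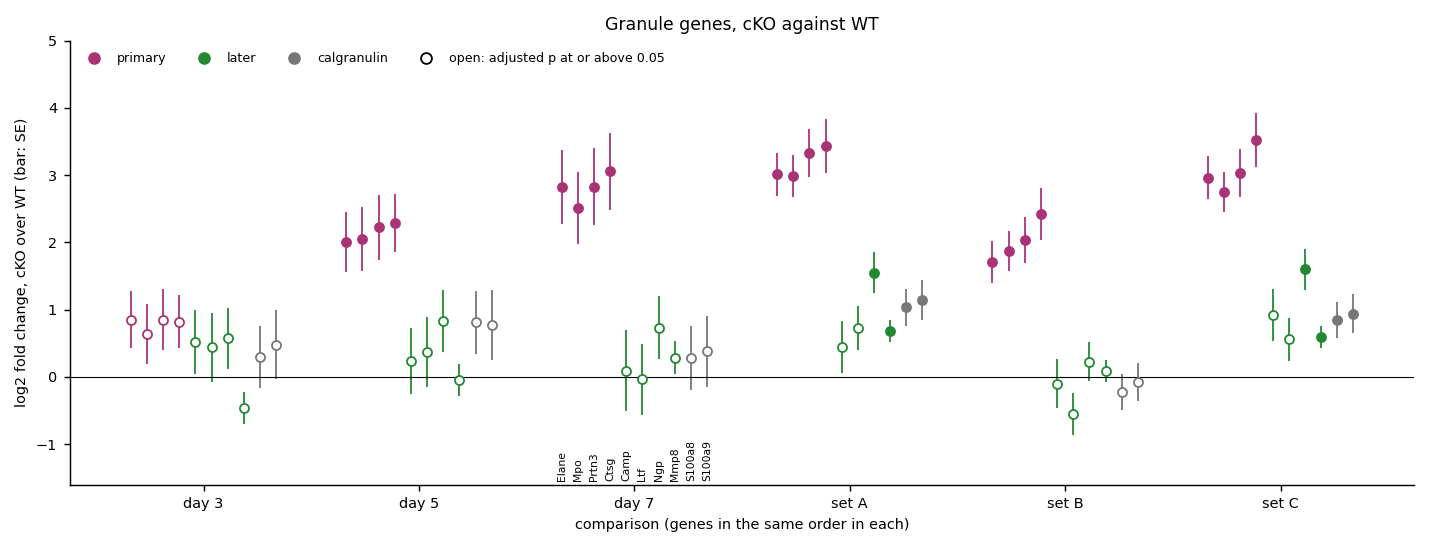
Log2 fold change of each gene, cKO over WT, in 6 comparisons, with bars for the standard error, coloured by class. Filled points have an adjusted p under 0.05 by edgeR. Primary genes are filled in 5 of the 6 comparisons and open on day 3, and the later genes of days 3, 5 and 7 and of set B are open.

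Whether the cKO effect itself changed with time was tested by an interaction. The cKO effect on day 7 minus that on day 3 was 1.87 to 2.24 on the log2 scale for the primary genes, with adjusted p from 0.169 to 0.224 by edgeR, so that 0 of 10 members passed (5 at an unadjusted p under 0.05, and 1, Ctsg, by DESeq2), against 0.0439% of all genes. For the later genes the same difference was between -0.47 (Ltf) and 0.75 (Mmp8). Between day 5 and day 3 0 of 10 passed (2 at an unadjusted p under 0.05, 0 by DESeq2), against 0% of all genes.

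Set side by side as the mean log2 CPM of each class, the primary genes of cKO cells exceeded those of WT cells by more than the later genes did on each day. This difference of differences was 0.50 on day 3, 1.72 on day 5 and 2.63 on day 7 (SD between replicates 0.17, 0.39 and 0.78). On day 7 the WT libraries lay between -0.39 and 0.76 in the mean log2 CPM of the primary genes and the cKO libraries between 2.05 and 3.47, while in the later genes WT libraries lay between 3.69 and 4.12 and cKO libraries between 3.45 and 5.00. The cKO and WT groups thus separate along one class and overlap along the other in the plot of class means.

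**Figure D3:**
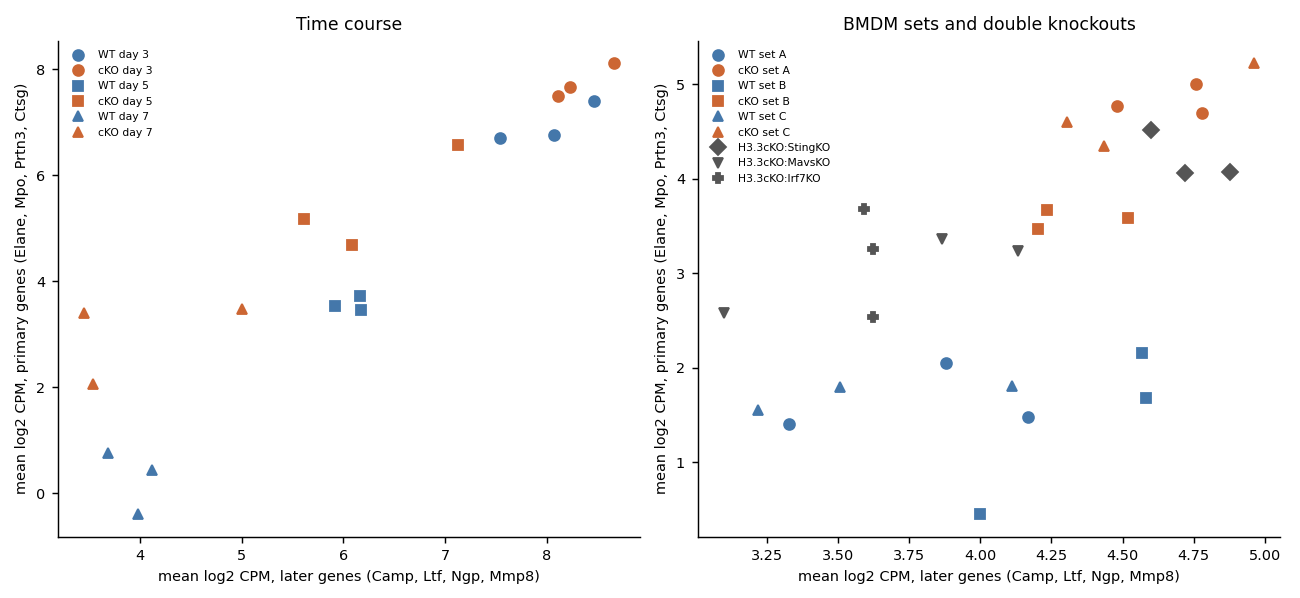
Mean log2 CPM of the 4 primary genes against that of the 4 later genes, 1 point per library, with blue for WT, orange for cKO and grey for double knockouts. On the left, day 5 and day 7 cKO libraries lie above WT libraries that have similar later gene levels. On the right, cKO libraries of the 3 sets lie above the WT libraries, and the MavsKO and Irf7KO libraries lie above the WT libraries and below those of cKO sets A and C.

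Per kilobase of exon, the calgranulins were the highest of the 10 genes in WT cells on day 3, with a mean of 962 CPM per kb for S100a9 and 483 CPM per kb for S100a8. Ngp followed at 460 CPM per kb, and Elane, at 173 CPM per kb, was the highest of the primary genes. On day 7 Mmp8, at 15.5 CPM per kb, exceeded every primary gene of WT cells, the highest of which was Elane at 1.22 CPM per kb. In cKO cells on day 7 Elane had 8.90 CPM per kb and Mmp8 had 18.9 CPM per kb.

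Lists of related genes gave few calls. The shares of all genes called were 7.73% on day 3, 2.83% on day 5 and 1.4% on day 7. Of 8 other primary granule and processing genes, 1 was higher in cKO cells on each day, which on day 3 is near that share, namely Srgn (the granule proteoglycan serglycin, log2 fold change 0.67) on day 3, Ms4a3 (1.96), a marker of granulocyte and monocyte progenitors, on day 5 and Serpinb1a (1.5), an inhibitor of neutrophil elastase, on day 7. Of 12 other later granule genes, 0 were called on any of the 3 days by edgeR. In the progenitor list Gata2 (1.90) and Myb (1.28) were higher on day 5 and Cd34 (4.05) on day 7, out of 8 genes, whose summed level was 373.9 to 466.1 CPM in WT and 387.2 to 484.5 CPM in cKO libraries on day 5 and 180.9 to 430.2 CPM against 462.4 to 495.2 CPM on day 7. None of the 8 was at 0 in these groups. Mature neutrophil markers, of which 0 of 10 were called on days 5 and 7, summed to 103.5 to 119.2 CPM in WT and 136.6 to 331.1 CPM in cKO libraries on day 5, and to 81.2 to 159.5 CPM and 101.2 to 208.7 CPM on day 7, with none at 0. The sums did not overlap on day 5 and did on day 7. The part of progenitors and neutrophils in the primary gene difference was not tested.

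Across the 18 time course libraries the genes whose log2 CPM followed the mean of the primary genes most closely were Serpinb1a (Pearson r = 0.990), Gfi1 (0.986), Ms4a3 (0.985), Ccdc88c (0.985) and Rab44 (0.980), among 11237 genes. Those closest to the mean of the later genes were Cebpe (0.990), Cd177 (0.989), Itgb2l (0.988), Pglyrp1 (0.987) and Mcemp1 (0.983). These libraries share the fall with culture time, and the 2 class means correlated with each other at r = 0.918.

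The 3 BMDM sets gave the same direction for the primary genes. All 4 were called higher in cKO cells in set A, with log2 fold changes from 2.99 to 3.43, in set B, from 1.71 to 2.42, and in set C, from 2.75 to 3.52. In set A 8 of 10 members were called, all higher, against 34.7% of all genes in either direction and 18% higher. In set B 4 of 10 were called, against 21% and 9.74%, and in set C 8 of 10, against 34.9% and 16.9%. Elane had 5.37, 3.81 and 4.93 CPM in WT and 35.5, 44.0 and 33.5 CPM in cKO libraries of set A. In set B it had 1.39, 5.59 and 3.61 CPM in WT and 9.91, 12.5 and 12.3 CPM in cKO libraries, so that WT levels overlapped those of set A and cKO levels were lower than in set A. The cKO libraries of each primary gene were above all WT libraries in each set.

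Some later genes and both calgranulins were called in sets A and C, and none in set B. In set A Ngp (log2 fold change 1.55, SE 0.30, adjusted p = 0.000291 by edgeR), Mmp8 (0.68), S100a8 (1.04) and S100a9 (1.15) were called higher, and Camp (0.44) and Ltf (0.73) were not. In set C the same 4 were called, with log2 fold changes of 1.60, 0.60, 0.84 and 0.94. In set B the median log2 fold change of the 4 later genes was -0.00288, beside -0.01 over all genes. That of the 4 primary genes was 1.95. Ltf had 26.1, 47.1 and 50.9 CPM in WT and 26.5, 27.9 and 30.2 CPM in cKO libraries of set B. The difference of the cKO effect between set A and set B, a test added after these values were seen, was called for 5 of 10 members (Elane, Ltf, Ngp, S100a8 and S100a9), against 20% of all genes, and that between sets C and B for 3 of 10 (Elane, Ngp and S100a8), against 19.5%. These counts rest on single libraries. For sets A and B the count was 0 without WT set A replicate 2, cKO set A replicate 2 or WT set B replicate 2, then 1 without WT set A replicate 3, cKO set A replicate 1, WT set B replicate 3 or cKO set B replicate 1, and 2 without cKO set B replicate 2 or 3. For sets C and B it was 0 without WT set B replicate 2 or 3, WT set C replicate 3 or cKO set C replicate 2, then 1 without WT set C replicate 2 or any of the 3 cKO set B libraries, and 6 without WT set B replicate 1. Among cKO libraries alone, a comparison also added later, the 4 primary genes and Mmp8 were higher in set A than in set B, 5 of 10 members against 12.5% of all genes, and the same 5 were higher in set C than in set B, against 14.9%, with Elane at 1.71 and 1.61 on the log2 scale. The first count was 3 without cKO set A replicate 2 or cKO set B replicate 1 or 3. The second was 2 without cKO set C replicate 2 and 3 without cKO set C replicate 3 or cKO set B replicate 1 or 3. Of 8 progenitor markers, 6 were called higher in set A (34.7% of all genes called, 18% higher), with summed levels of 217.4 to 306.7 CPM in WT and 480.2 to 504.2 CPM in cKO libraries, and in set B (21% of all genes called, 9.74% higher) 3 were higher and 2 lower, with 845.3 to 936.4 CPM in WT and 688.6 to 723.8 CPM in cKO libraries. Their part in the result was not tested.

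Beside these shares, of 8 other primary granule and processing genes 5 were called higher and 2 lower in set A, led by Ms4a3 (log2 fold change 2.73), Serpinb1a (2.58) and Prss57 (2.51), a serine protease of the same granules, and 3 were higher and 2 lower in set B, with Ms4a3 at 1.61, Serpinb1a at 0.76 and Ctsc, the protease that activates the primary granule proteases, at 0.59. Of 12 other later granule genes 6 were higher in set A, and 2 were higher and 1 lower in set B, the last being Mmp9 (-2.67), the gelatinase gene. The set B count of later granule genes is near the share of all genes called there (21%, and 9.74% higher). Of the regulators of granulocyte formation only 2 are given here, and how many of the others moved either way is not. Gfi1, a repressor needed for neutrophil formation, had log2 fold changes of 2.11 in set A, 0.90 in set B and 2.50 in set C. Myb, a progenitor transcription factor, had 2.93, 1.78 and 3.41.

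Compared with the mean of the 3 cKO sets, most granule genes were called lower in the libraries labelled H3.3cKO:MavsKO and H3.3cKO:Irf7KO, and few in those labelled H3.3cKO:StingKO. The counts change with the set used as the reference, as given below. Sets A and C, not counted as independent here, both enter this mean and together weigh more in it than set B. Sting, Mavs and Irf7 carry innate signals toward type I interferon, Sting and Mavs as adaptors of DNA and RNA sensing and Irf7 as a transcription factor. In H3.3cKO:MavsKO 8 of 10 members were called lower, against 8.79% of all genes in either direction and 3.24% lower. Its primary genes had log2 fold changes from -1.13 (Ctsg) to -1.49 (Elane). In H3.3cKO:Irf7KO 9 of 10 were called lower, all but Mmp8, against 9.85% and 5.5%, with -0.96 for Elane and -1.38 for Ltf. In H3.3cKO:StingKO no primary gene was called, with log2 fold changes of -0.29 (Elane, SE 0.24), -0.21 (Mpo), -0.15 (Ctsg) and -0.000261 (Prtn3, SE 0.28) and adjusted p of 0.358 or more by edgeR. Camp (0.89) and Ltf (0.62) were called higher and Mmp8 (-1.19) lower there, 3 of 10 members against 36.1% of all genes. The call of Ltf (adjusted p = 0.0491 by edgeR) was lost in 17 of 20 alternatives, among them RLE scaling, DESeq2 and the replicate block, each of which called 2 members. Of 8 other primary granule and processing genes 4 were lower in H3.3cKO:MavsKO and 3 in H3.3cKO:Irf7KO, and of 12 other later granule genes 5 and 9.

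**Figure D4:**
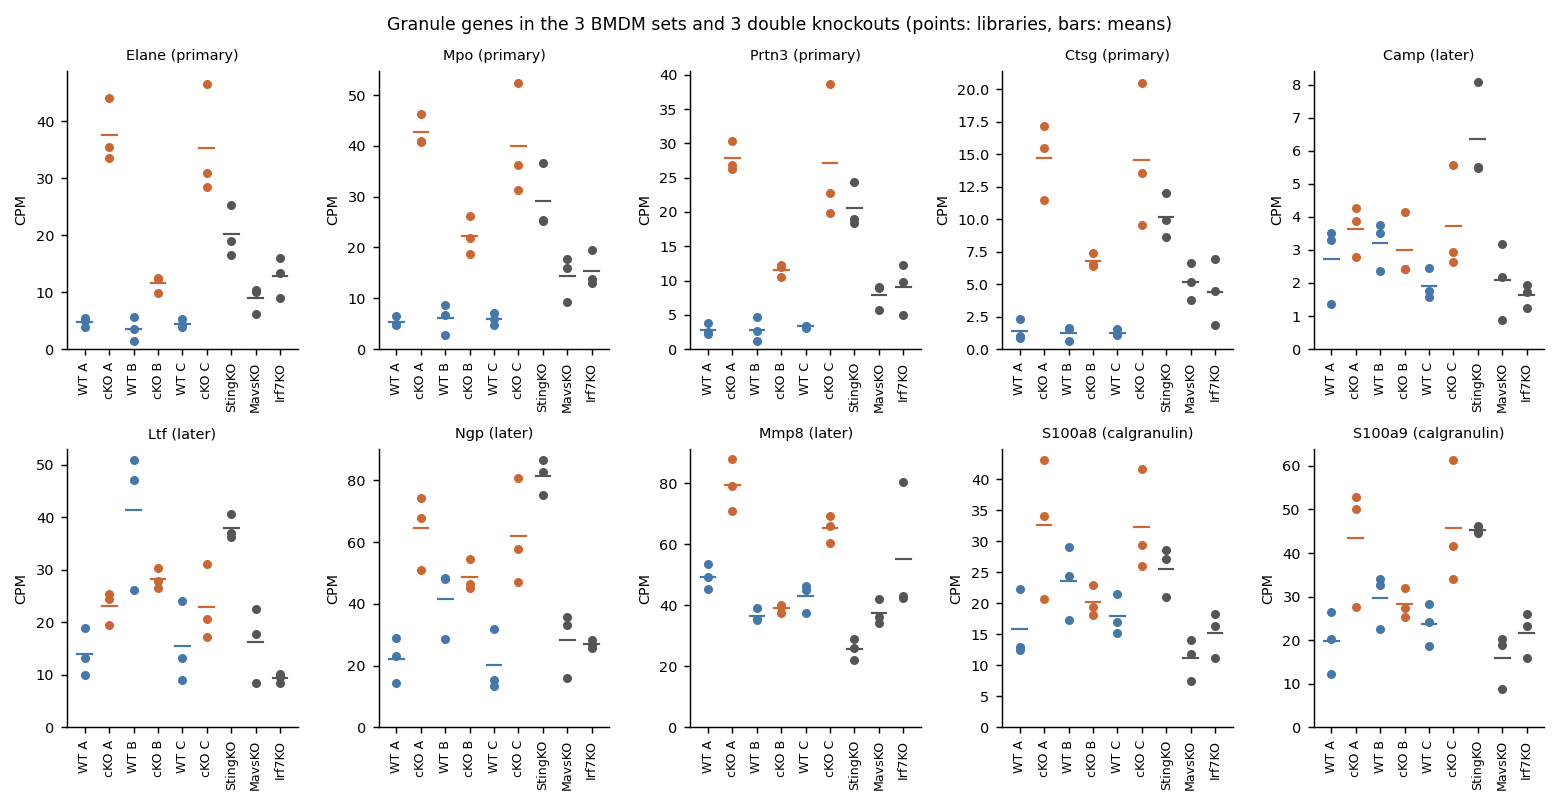
CPM of the 10 genes in WT (blue) and cKO (orange) libraries of sets A, B and C and in the 3 double knockouts (grey), with a point per library, 3 per group, and a bar for the mean. The axes start at 0. Elane in cKO set B (9.91 to 12.5 CPM) lies near H3.3cKO:MavsKO (6.19 to 10.4 CPM) and below cKO sets A and C.

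These counts depend on which cKO libraries serve as the reference. No title names the set that goes with a double knockout. In the order of the samples H3.3cKO:StingKO follows set A, H3.3cKO:MavsKO follows set B and H3.3cKO:Irf7KO follows set C. H3.3cKO:MavsKO differed least from cKO set B, with 88 of 18083 genes called, where cKO sets A and C gave 2322 and 3268. Against set B 0 of its 10 granule genes were called by edgeR, and the log2 fold change of Elane was -0.38 (adjusted p = 1), in place of -1.49 against the mean of the sets and of -2.09 against set A. H3.3cKO:Irf7KO differed least from cKO set C, with 161 genes called, where sets A and B gave 1415 and 3545. Against set C the 4 primary genes were called lower, with log2 fold changes from -1.37 (Mpo) to -1.71 (Ctsg), and no other member was. Against set B 3 of 10 were called in H3.3cKO:Irf7KO and Elane was 0.15 on the log2 scale above the reference. H3.3cKO:StingKO differed least from cKO set A, with 4069 genes called, where sets B and C gave 6094 and 5737. Against set A 2 of its 10 granule genes were called, Elane (-0.89, adjusted p = 0.0261 by edgeR) and Mmp8 (-1.62), both lower. Elane in H3.3cKO:StingKO was also called lower against set C (-0.80, adjusted p = 0.0341 by edgeR), and higher against set B (0.81, adjusted p = 0.0331). Without H3.3cKO:Irf7KO replicate 1 the count against the mean of the sets was 4 in place of 9, and without H3.3cKO:StingKO replicate 3 it was 1 in place of 3.

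Against the mean of the WT sets, a comparison added after the data were seen, the primary genes were higher in every double knockout. Sets A and C both enter this mean too, although they are not counted as independent. All 4 were called in H3.3cKO:StingKO, with log2 fold changes from 2.27 (Elane) to 2.97 (Ctsg), in H3.3cKO:MavsKO, from 1.07 (Elane) to 1.99 (Ctsg), and in H3.3cKO:Irf7KO, from 1.41 (Mpo) to 1.77 (Ctsg), against 20.5%, 21.8% and 14.8% of all genes called higher. In no double knockout were all 4 later genes called higher. In H3.3cKO:StingKO Camp, Ltf and Ngp were called higher (1.31, 0.87 and 1.62), and Mmp8 was called lower (-0.73, adjusted p = 0.000198 by edgeR). S100a9 was also called higher there (0.91), so that 9 members were called in H3.3cKO:StingKO, 8 higher and 1 lower. In H3.3cKO:MavsKO none of the 4 later genes was called, with log2 fold changes from -0.36 to 0.09 (adjusted p from 0.285 to 0.796 by edgeR), and in H3.3cKO:Irf7KO Ltf (-1.14) was called lower and Mmp8 (0.37) higher. H3.3cKO:MavsKO also had S100a8 called lower (-0.77).

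In the antibody experiment most granule RNA was gone, although by the paper's methods these cultures were lysed before day 7. WT cells of the time course on day 7 held more Ltf, 7.25 CPM per kb against 0.0192 CPM per kb in WT cells without antibody. Mmp8 went the other way, with 15.5 and 20.6 CPM per kb. The cause of this difference between experiments was not tested. Elane, Mpo, Camp, Ltf, Ngp and S100a9 had at most 0.726 CPM in any library, and only Prtn3, Ctsg, Mmp8 and S100a8 had enough counts to be tested. With the control antibody Prtn3 and Mmp8 were called higher in cKO cells, 2 of 4 tested members against 4.45% of all genes. Prtn3 averaged 0.123 to 0.216 CPM per kb in the WT arms and 0.417 to 1.13 CPM per kb in the cKO arms. It passed the filter mainly through cKO libraries, as did Ctsg, so the 2 of 4 only describes members that could be tested. Prtn3 had 0.140, 0.227 and 0.275 CPM in WT and 1.97, 1.81 and 2.07 CPM in cKO libraries (log2 fold change 3.17, SE 0.55, adjusted p = 0.00309 by edgeR). These WT libraries held 10955509 to 17913002 counts, so their Prtn3 levels were a few counts each and the fold change is imprecise. Mmp8 had 75.9, 58.5 and 73.1 CPM in WT and 103, 184 and 209 CPM in cKO libraries (1.26, SE 0.25, adjusted p = 0.00776). In both genes every cKO library exceeded every WT library, and 1 of the 2 calls was lost without WT control antibody replicate 2 or without cKO control antibody replicate 3.

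Without antibody 0 of 4 tested members were called between cKO and WT cells by edgeR (1 at an unadjusted p under 0.05, 1 by DESeq2), against 7.1% of all genes, and Mmp8 had a log2 fold change of 0.75 (SE 0.25, adjusted p = 0.0762). With the IFNAR1 antibody 0 of 4 were called (3 at an unadjusted p under 0.05, 0 by DESeq2), against 0.675%, and Mmp8, with 57.0, 82.4 and 74.9 CPM in WT and 112, 116 and 138 CPM in cKO libraries, had a log2 fold change of 0.77 (SE 0.25, adjusted p = 0.227). Without WT no antibody replicate 1 the first count was 1, and without cKO IFNAR1 antibody replicate 1 the second was 1. The Mmp8 levels of cKO libraries were above those of all WT libraries in each of the 3 arms. The cKO effect under the IFNAR1 antibody against that under the control antibody was called for 0 of 4 members (1 at an unadjusted p under 0.05, 0 by DESeq2), against 0% of all genes. S100a8 rose with the control antibody in WT cells, from 0.413, 0.0941 and 0.152 CPM to 2.38, 1.53 and 2.75 CPM, by 3.3 on the log2 scale (SE 0.65, adjusted p = 0.00983 by edgeR), the 1 call among 4 members tested, against 8.9% of all genes. Its WT level with the IFNAR1 antibody, 0.308, 0.376 and 1.02 CPM, was called lower than with the control antibody (log2 fold change -1.94, adjusted p = 0.0457), 1 of 4 against 9.89%. These S100a8 levels were low, and those without antibody were near the floor. S100a9, the other calgranulin, was too low to be tested and did not rise with it in WT cells. It averaged 0.0330 CPM per kb without antibody and 0 with the control antibody in WT cells, and 0.102 and 0.943 CPM per kb in cKO cells. In cKO cells 0 of 4 members were called between the control antibody and none by edgeR (3 at an unadjusted p under 0.05, 2 by DESeq2), against 1.46% of all genes, where S100a8 had a log2 difference of 2.43 (adjusted p = 0.115), and 0 of 4 between the IFNAR1 and control antibodies (1 at an unadjusted p under 0.05, 0 by DESeq2), against 4.03%. In WT cells the first call was lost without WT no antibody replicate 3, and the second without any of the 3 WT control antibody libraries or without WT IFNAR1 antibody replicate 1 or replicate 2.

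On day 8 Mmp8 was the 1 granule gene with enough counts to test, and the other 9 had at most 0.875 CPM. Mmp8 had 29.1, 20.3 and 34.0 CPM in untreated WT and 23.9 and 31.1 CPM in untreated cKO libraries, which overlap (log2 fold change -0.02, SE 0.35, adjusted p = 1 by edgeR, 0 of 1 called, also at an unadjusted p under 0.05 and by DESeq2, against 0.612% of all genes). With IFNγ it had 16, 13.2 and 15.4 CPM in WT and 3.62 and 16 CPM in cKO libraries. All IFNγ libraries were below all untreated ones of their genotype. With IFNγ Mmp8 changed by -0.90 on the log2 scale (SE 0.32, adjusted p = 0.0474 by edgeR) in WT cells, against 40.1% of all genes called, and -1.23 (SE 0.42, adjusted p = 0.0451) in cKO cells, against 33.6%. The replicate number pairs the WT libraries, and with it as a block the WT call was lost (adjusted p = 0.0779) or, with the block set within genotype, kept (adjusted p = 0.0316). In WT cells the call was also lost without any 1 of untreated replicates 1 and 3 and IFNγ replicates 1, 2 and 3. For cKO cells it was lost without untreated replicate 1 or 2 or without IFNγ replicate 1, which had the fewest counts of all libraries (3614967). Between cKO and WT cells under IFNγ Mmp8 differed by -0.35 on the log2 scale (SE 0.40, adjusted p = 0.635, 0 of 1 called, also at an unadjusted p under 0.05 and by DESeq2), against 4.83% of all genes. The interaction of genotype and IFNγ did not pass the test (-0.33, SE 0.53, adjusted p = 0.868, 0 of 1 called, also at an unadjusted p under 0.05 and by DESeq2, against 0% of all genes). Both counts were 1 without cKO IFNγ replicate 2, which leaves the cKO library with the fewest counts as the only one of its group.

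**Figure D5:**
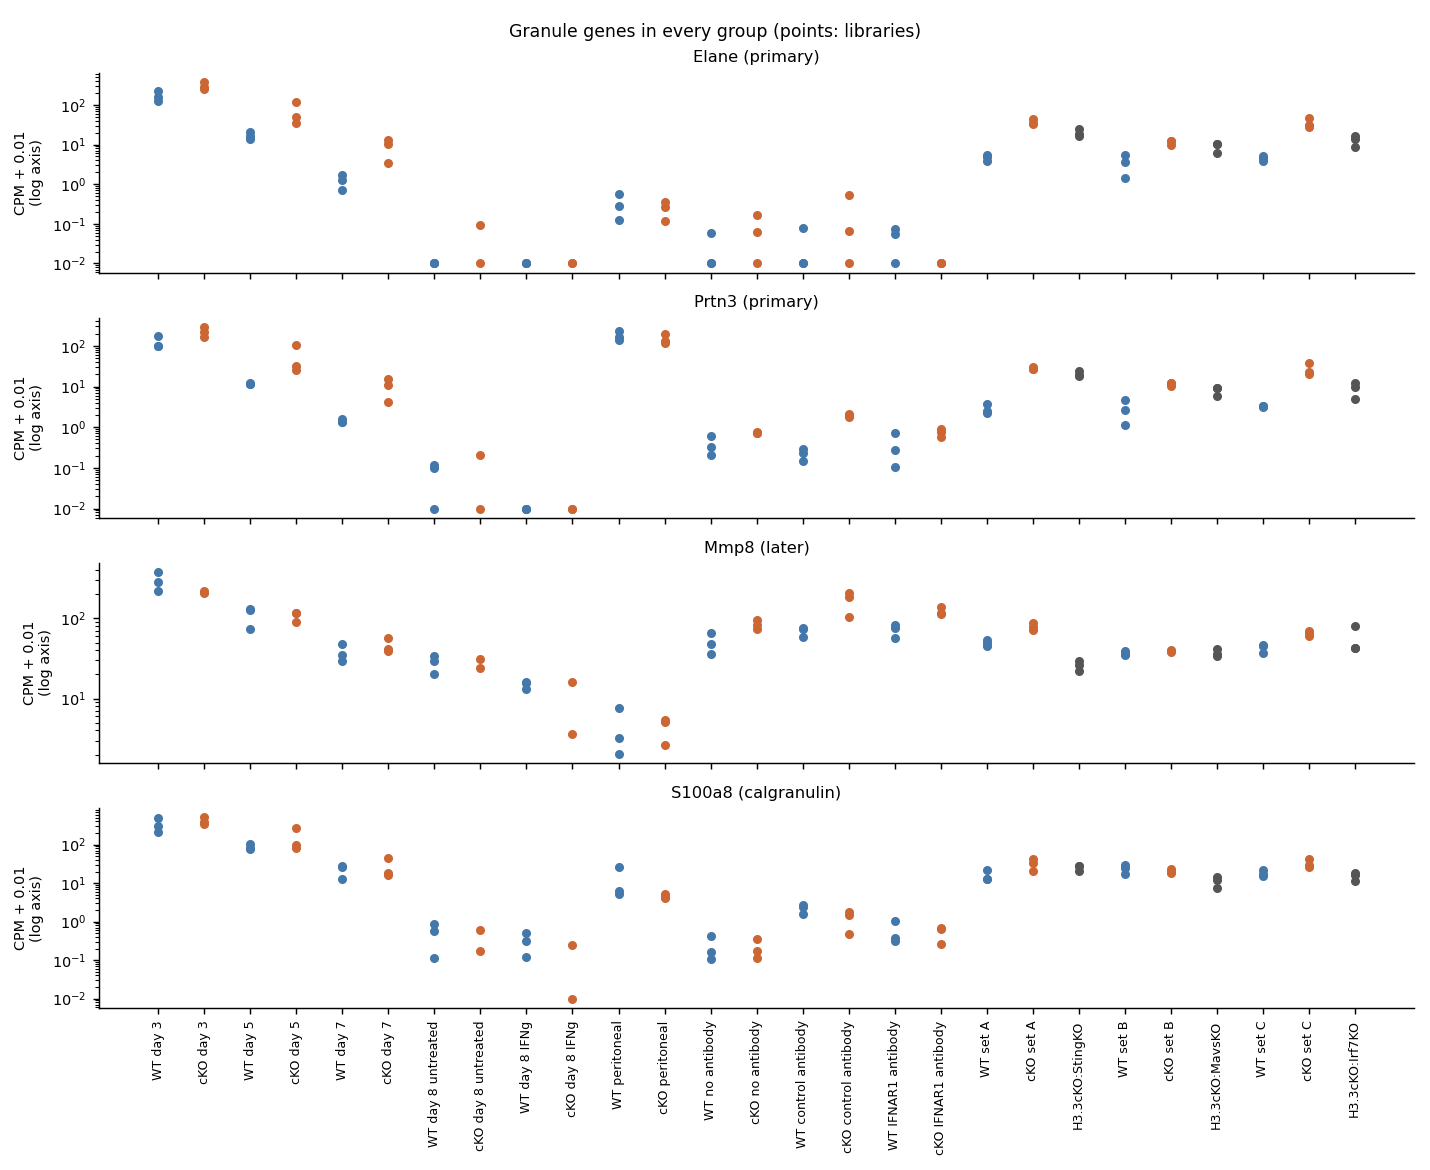
Elane, Prtn3, Mmp8 and S100a8 in every group, as CPM plus 0.01 on a log axis, with a point per library, blue for WT, orange for cKO and grey for double knockouts. Scaling was done separately in each experiment. Prtn3 lies at 118 to 233 CPM in peritoneal macrophages, where Elane lies below 1 CPM, and Mmp8 is detected in every library.

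Peritoneal macrophages had high counts of Prtn3 without the rest of its class. Prtn3 had 140, 233 and 160 CPM in WT and 130, 118 and 200 CPM in cKO libraries, at the level of WT marrow cultures on day 3, although the library kits differed and scaling was separate. Elane, its neighbour, had 0.106 to 0.568 CPM, Mpo at most 0.0911 CPM and Ctsg at most 0.686 CPM. Plppr3, which overlaps Prtn3, had 15.1 to 33.4 CPM here. The counts do not tell strands apart, so reads from the other strand on exons of Prtn3 alone would count as Prtn3. Their part was not tested. Of 5 members tested, 0 were called between cKO and WT cells by edgeR (1 at an unadjusted p under 0.05, S100a8; 0 by DESeq2), against 0.971% of all genes, and the log2 fold change of Prtn3 was -0.26 (SE 0.26, adjusted p = 0.849). WT replicate 2 stood apart in the calgranulins, with 26.5 CPM of S100a8 and 31.1 CPM of S100a9, where the other WT libraries had 5.29 to 6.07 and 3.37 to 3.82 CPM.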

How the data were processed

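Gene counts were deposited per library. Per the labels and the study's methods, the authors trimmed reads with Cutadapt, aligned them with STAR to mm10 and deposited STAR's counts of reads per gene (versions are not given in the sources used here). BMDM libraries were made after rRNA depletion with a kit that does not mark strand, so the unstranded counts were used, and peritoneal libraries with a kit for low RNA input. Reads that hit several genes or places are not counted, which can lower Prtn3. Rows that name no gene stayed out of library sizes.

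The 10 genes, the related lists and the comparisons were chosen with earlier results of these data known. The genes named are all 10 members, called genes of the related lists (at most 4 per list and direction by fold change), marker genes that define a list and the 5 genes most like each class mean (out of those whose log2 CPM averaged 1 or more). Sequence letters were searched as described in the report.

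Each experiment (time course, day 8, peritoneal, antibody, sets with double knockouts) was fitted on its own with edgeR 4.0.16 (R 4.3.3, limma 3.58.1), with TMM scaling, a filter for a count of 10 and a total of 15 (filterByExpr), the quasi-likelihood test, and Benjamini-Hochberg adjustment over all genes tested, called at 0.05. CPM are TMM scaled, and log2 values of class means use a prior count of 2. SE is the log2 fold change divided by the root of F. Libraries had 3614967 to 45564225 counts, and 12361 to 18083 genes were tested per experiment. The titles call the replicates biological. Which animal or culture each library came from, and whether sets share animals, the labels do not say.

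Alternatives were RLE scaling, no filter, DESeq2 1.42.0, a fit of only the groups compared, each library left out and another cKO set as the reference. The unplaced libraries were also placed by title or by library name, and the replicate number was used as a block. Deviations of same-numbered libraries correlated above 0.1 in every pair for cKO and WT on day 3 (0.126 to 0.419), day 7 (0.153 to 0.467) and in peritoneal cells (0.144 to 0.194), for untreated and IFNγ WT cells (0.335 to 0.451), for cKO days 3 and 7 (0.138 to 0.415) and for WT without and with control antibody (0.145 to 0.284). The same held for cKO days 5 and 7 (0.233 to 0.492), for cKO without and with IFNAR1 antibody (0.201 to 0.322) and for WT sets A and C (0.143 to 0.386). Only the pairs of groups that passed 0.1 are named, out of all pairs within an experiment. Libraries with different numbers reached 0.359 for cKO and WT on day 7 and 0.339 for cKO days 3 and 7. Same-numbered libraries of WT day 5 and cKO day 7 had -0.397 to -0.172. The test was tried on simulated counts.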

Additional observations from a re-analysis of the deposited data

Results flagged for a closer look

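The cKO effect differed between sets A and B, by the interaction in edgeR's model, for Elane (log2 difference 1.31), Ltf (1.28), Ngp (1.33), S100a8 (1.27) and S100a9 (1.22), 5 of 10 members beside 20% of all genes. Between sets C and B it differed for Elane (1.26), Ngp (1.37) and S100a8 (1.07), 3 of 10 beside 19.5%. Each difference is larger in set A or C. The counts ran from 0 to 7 and from 0 to 6 with each library left out. The first was 0 without WT set A replicate 2, cKO set A replicate 2 or WT set B replicate 2, and the second without WT set B replicate 2 or 3, WT set C replicate 3 or cKO set C replicate 2. Sets A and C are not shown to be independent, so these are not separate observations.

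Of the 2 libraries labelled cKO day 8 replicate 3 whose labels disagree, the one with IFNγ in its title and untreated in its library name held 52.5 CPM of Mmp8 and 0.517 CPM of Camp without scaling, and the other held 16.2 CPM of Mmp8. Neither was placed in a group on the strength of these values. In the alternatives that placed both, the genes called for IFNγ in cKO cells were 0 by title and 6026 by library name, where 4399 were called without them. No group had more than 3 libraries, so single libraries far from their group were not tested.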

How the results depend on the processing

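Directions of the primary genes between cKO and WT cells did not change in the time course or the sets under any alternative, and the log2 fold change of Elane ran from 1.32 to 2.33 on day 5 and from 2.46 to 3.22 on day 7. Counts of members called did change. With only the groups compared, 2 members were called on day 3, 0 on day 5, 0 on day 7, 0 for IFNγ in cKO cells, 2 for control against no antibody in cKO cells and 0 for IFNAR1 against control antibody in WT cells. With no filter, day 5 against day 3 in cKO cells gave 10, the change of the cKO effect to day 7 gave 4, peritoneal cells 1, control against no antibody in cKO cells 1 and H3.3cKO:StingKO 5. DESeq2 gave 1 for the cKO effect to day 7, 1 for cKO against WT without antibody and 2 for control against no antibody in cKO cells. The replicate block gave 10 for day 5 against day 3 in cKO cells (10 with the block within genotype), 0 for IFNγ in WT and in cKO cells (0 with crossed cKO numbers, chosen after seeing the data), and 1 for control against no antibody in cKO cells (2 within genotype), and it kept 4 calls on day 5 and on day 7. Unplaced libraries put in by title gave 0 for IFNγ in either genotype, with 2 of 13075 genes called for IFNγ in WT and 0 in cKO cells, where 5240 and 4399 were called without them. Placed by library name, they kept 1 call for IFNγ in each genotype, with 5591 genes called in WT and 6026 in cKO cells. Against cKO set B, H3.3cKO:MavsKO gave 0 and H3.3cKO:Irf7KO 3, and Elane reversed to 0.15 in H3.3cKO:Irf7KO, and against set C H3.3cKO:Irf7KO gave 4.

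Leaving out each library in turn gave 4 to 8 calls for day 5 against day 3 in WT and 0 to 10 in cKO cells, 0 to 4 for cKO against WT on day 5 and on day 7, 0 to 1 for IFNγ in WT, in cKO cells and for the difference of the response, 0 to 1 for cKO against WT with IFNγ, 0 to 1 for cKO against WT without antibody and with the IFNAR1 antibody, 1 to 3 with the control antibody, 0 to 1 and 0 to 2 for control against no antibody in WT and cKO cells, 0 to 1 for IFNAR1 against control antibody in WT cells, 1 to 3 for H3.3cKO:StingKO, 6 to 8 for H3.3cKO:MavsKO, 4 to 9 for H3.3cKO:Irf7KO, and 8 to 9, 4 to 4 and 6 to 9 for sets A, B and C.

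Over all genes, 451 were called on day 5 (741 by DESeq2, 737 with no filter, 131 with only the groups compared) and 223 on day 7 (744, 702 and 13, and 399 with the block). With only the groups compared, 2358 in place of 1233 were called on day 3, 1012 in place of 3820 for day 7 against day 3 in WT cells, 3384 in place of 765 for the control antibody, 7 in place of 116 for the IFNAR1 antibody and 1097 in place of 4399 for IFNγ in cKO cells. DESeq2 called 463 in place of 7 for the cKO effect to day 7, 336 in place of 120 in peritoneal cells (563 with no filter), 2236 in place of 1221 without antibody, 218 in place of 80 for untreated day 8 cells and 1510 in place of 631 with IFNγ. The causes were not tested. Time course primary gene calls rest on the spread pooled over 18 libraries, and low levels on day 8 and with antibodies leave 9 and 6 members below the filter.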
